A study of Homo sapiens with 5 samples.

Results

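Regions of open chromatin that carried a peak in Reh and in Namalwa, and no peak in L1236, L428 or L591, numbered 610 of 58006 merged regions on chromosomes 1 to 22 (1.05%, exact 95% interval 0.970 to 1.14). They were chosen by presence and absence alone: peaks of all 5 lists that shared at least 1 bp were merged, and a region was kept when both non-Hodgkin lines and no Hodgkin line contributed to it. That choice fixes the contrast between the groups, which is therefore described here and not tested. Of the 610 regions, 39 lay in 7 stretches in which at least 4 of them started within 50 kb, and 571 were single sites outside such stretches.

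Reh is a pro-B lymphoblastic leukaemia line and Namalwa a Burkitt lymphoma line, and the labels call both non-Hodgkin. L1236, L428 and L591 are Hodgkin lymphoma lines. All were used at passage 7 after growth in the same medium. The DNase I concentration, titrated for each line, was 6 U/ml for Reh, L1236 and L428, and 12 U/ml for Namalwa and L591. Each line gave 1 library and 1 peak list, so the error within a line is unknown, and only the spread between the lines of a group can be given. No treatment or genetic change is labelled, and the identity of the lines was not checked against marker genes, because gene positions in the build of the files, hg18, were not used here.

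DNase I cuts DNA where nucleosomes are displaced, so its cut sites mark promoters, enhancers and insulators that are bound by regulatory proteins. Promoters of widely expressed genes are open in most cell types and tend to give strong signals, whereas enhancers differ more between cell types and stages. Reh resembles an early stage of B cell development, Namalwa resembles a germinal centre B cell, and Hodgkin cells descend from germinal centre B cells but have given up most B cell gene expression.

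The lists differed in length. On chromosomes 1 to 22, Reh had 27502 peaks and Namalwa 5643, against 24971 in L1236, 22758 in L428 and 26030 in L591. Read depth is unknown, since the files give no read counts. The regions described here made up 12.3% of the 4944 Namalwa regions (exact 95% interval 11.4 to 13.3) and 2.37% of the 25726 Reh regions (2.19 to 2.56). Intervals on shares cover counting error only. Of the Namalwa peaks, 98.4% touched a Reh peak, and whether the 2 libraries are independent was not tested, so a peak in both is not shown to be 2 separate observations.

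Regions without any Hodgkin peak were a minority of what Reh and Namalwa shared. Of the 4878 regions open in both lines, 610 had no Hodgkin peak (12.5%, 11.6 to 13.5), whereas 2991 (61.3%) were also open in every one of the 3 Hodgkin lines. For comparison, 51.5% of all Reh regions had no Hodgkin peak. Regions that missed selection through 1 Hodgkin line were fewer than the members: 229 had a peak of L591 as the sole Hodgkin peak, 90 of L1236 and 70 of L428. L428 and L591 together, without L1236, accounted for 691. The L1236 list lacks the mark qcTrimmed that the other lists carry. Its lowest deposited score per bp was 12.0, against 6.60 in L428 and 5.70 in L591, on scores without a common scale. Whether absence from L1236 means the same as absence from the other lists was not tested. In the opposite direction, 2518 regions (4.34% of merged regions) were open in every Hodgkin line but not in Reh or Namalwa. A further 5 regions of Reh and Namalwa alone lay on chromosome X and are not counted here.

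The boundary of the class was narrow for some regions. At chr4:49025411-49025850 and at chr7:4648271-4648620 the nearest L591 peak lay directly beside the region without sharing a base, and at chr1:12143711-12144180 an L1236 peak lay 20 bp away. Just outside the class, the Hodgkin peaks at chr2:86117701-86118410 and at chr17:21950131-21950640 were L1236 peaks that shared 20 bp with a Reh or Namalwa peak, and the one at chr8:8228361-8229260 shared 70 bp. When peaks up to 200 bp apart were joined, the class held 558 regions. The list lengths mattered more: with each list limited to its 5643 highest-scoring peaks the class held 1008 regions, and with the upper 50% of each list it held 250. The limit of 5643 is the length of the Namalwa list, so it cut only the Reh and Hodgkin lists. Regions that entered the class under it had a Hodgkin peak in the full lists.

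Ranked within each list, single sites were fairly strong Reh peaks and mostly weak Namalwa peaks. The deposited score, a peak area without a common scale, was read as a percentile within each list. The median percentile of single sites was 80.8 in Reh (quartiles 66.8 and 89.98) and 30.4 in Namalwa (15.1 and 53.4). Regions of Reh and Namalwa that also had a Hodgkin peak stood higher, at medians of 90.5 in Reh and 55.4 in Namalwa. Regions with a peak in Reh alone stood far lower in the Reh list, at 31.3. That contrast is not independent of the rule, which asks for a Namalwa peak. Without Namalwa in the rule, the median of single sites in the Reh list was 29.9. Both percentiles reached 50 at 162 single sites (28.4%), 75 at 48 sites and 90 at 10 sites. At 357 sites (62.5%) the Reh percentile was at least 50 and that of Namalwa was below 50, and the reverse held at 2. The Reh percentile was the higher at 97.5% of single sites and at 99.1% of the shared regions with a Hodgkin peak. That order was thus not particular to single sites. The percentiles come from lists of 27502 peaks in Reh and 5643 in Namalwa, so equal percentiles are not equal ranks. Stretch regions had medians of 79.3 in Reh and 29.3 in Namalwa.

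**Figure D1:**
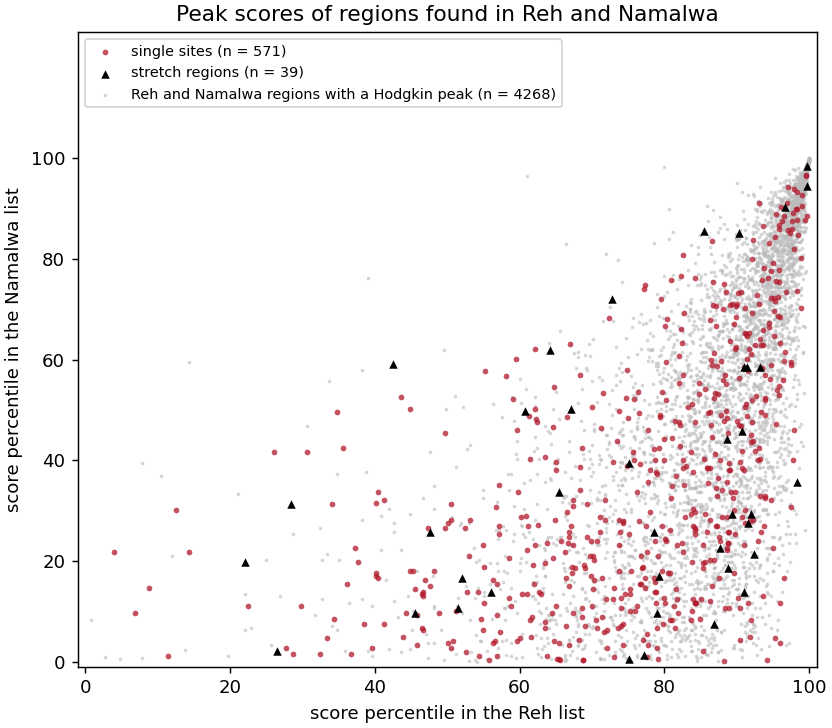
Score percentile in the Reh list (x axis) and in the Namalwa list (y axis) of each region with a peak in both lines. Red points are the 571 single sites, black triangles the 39 stretch regions and grey points the 4268 regions that also had a Hodgkin peak. Most single sites lie at the right and low in the panel, with medians of 80.8 in Reh and 30.4 in Namalwa.

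Shared regions with higher scores lacked Hodgkin peaks less often. When the 4878 shared regions were put in 5 equal bins by Reh score, 27.4% of the lowest bin had no Hodgkin peak (24.6 to 30.3), against 12.5%, 11.5%, 7.17% and 4.0% in the bins above it. By Namalwa score the shares were 22.2%, 17.5%, 11.6%, 7.38% and 3.89%, again from low to high. The intervals of the lowest and highest bins did not overlap in either ordering, but they cover counting error only and count neighbouring regions as independent. Even in the highest bins, 39 regions by Reh score and 38 by Namalwa score had no Hodgkin peak. The score includes peak width, and a wider peak has more bases that can touch a Hodgkin peak. Median Reh peak widths were 560 bp at single sites and 640 bp at shared regions with a Hodgkin peak. Bins by score per bp were not made, so the part of width was not tested. The part of regions that hold several peaks of a line was not tested either.

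**Figure D2:**
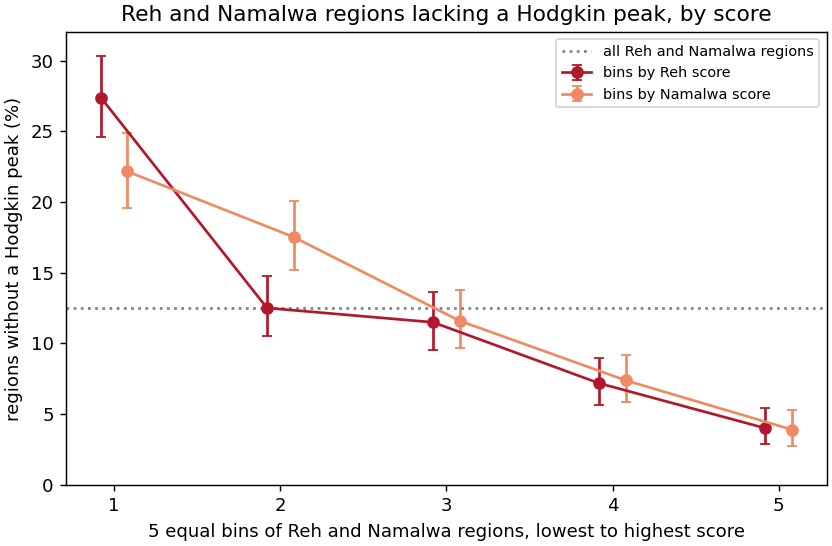
Share of Reh and Namalwa regions without any Hodgkin peak (y axis, %) in 5 equal bins of about 976 regions, ordered from low to high score (x axis), binned by the Reh score (red) or the Namalwa score (orange). Error bars are exact 95% binomial intervals and the dotted line is the 12.5% over all 4878 regions; the share is 27.4% in the lowest Reh bin and 4.0% in the highest.

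Peaks of the 2 lines lay close together within a single site, which the rule favours, since it joins peaks that share bases. Whether they lay closer than that rule requires was not tested. The Namalwa peak lay wholly inside the Reh peak at 474 of 571 single sites (83.0%, 79.7 to 86.0), against 87.5% (86.4 to 88.4) of the shared regions with a Hodgkin peak. Median peak widths at single sites were 560 bp in Reh and 250 bp in Namalwa, and the median distance between the centres was 65 bp. The centres lay within 50 bp of each other at 41.7% of single sites and at 42.2% of the shared regions with a Hodgkin peak. Peak bounds were identical in both lists at 5 single sites. At 35 single sites Namalwa had more than 1 peak within the region, and at 6 sites Reh had. Across the 571 sites, Spearman's rho of the Reh and Namalwa percentiles was 0.590, against 0.737 across the 4268 regions with a Hodgkin peak. These are values across regions of the same 2 libraries, and peak width enters both scores.

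The 20 leading single sites, ranked by the lower of the 2 percentiles, lay on 11 chromosomes and had a median width of 1195 bp. Their percentiles were at least 93.0 in Reh and 87.5 in Namalwa. First in rank was chr15:96304351-96305040, at percentile 99.5 in Reh and 96.7 in Namalwa. It stood alone, with no other Reh region within 25 kb and the nearest Hodgkin peak, of L591, 144130 bp away. Second was chr15:19248111-19250450, a region of 2340 bp at percentiles 99.5 and 96.4, with 14 other Reh regions within 25 kb and an L1236 peak 4010 bp away.

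A narrow site came next in rank. At chr17:21945591-21945750 the Reh and the Namalwa peak had the same bounds, 160 bp, and yet reached percentile 97.1 in Reh and 94.3 in Namalwa. By score per bp it stood at 99.8 in Reh and 98.9 in Namalwa, and peaks of all 3 Hodgkin lines lay within 150 to 260 bp of it. Only 7 single sites were 200 bp wide or less, and 2 of these had both percentiles at 75 or above. Whether reads at this site map to repeated sequence was not tested.

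Broad leading sites held several Namalwa peaks. The widest single site, chr8:144668221-144671280, was 1 Reh peak of 3060 bp at percentile 99.7, within which Namalwa had 4 peaks, the highest at percentile 88.5. At chr1:154727841-154730030 a Reh peak of 2190 bp at percentile 99.4 contained 3 Namalwa peaks, the highest at 87.7. At chr8:145465031-145466730, chr22:23152841-23154290, chr16:84343161-84344810, chr1:1701021-1702170 and chr5:177480111-177481690 there were 2 Namalwa peaks within 1 region. Regions of 1000 bp or more made up 76 of the 571 single sites.

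Other leading sites had 1 peak in each line. At chr5:139029601-139030770 the percentiles were 97.9 in Reh and 93.9 in Namalwa, and at chr7:98108681-98109840 they were 98.3 and 93.3. The site chr1:44074621-44075190 stood at 96.9 in Reh and 91.1 in Namalwa, and chr3:171012761-171013880 at 93.0 and 91.1. On chromosome 16, chr16:1261341-1262560 reached 98.9 in Reh and 90.5 in Namalwa, and on chromosome 22, chr22:49254421-49255710 reached 96.1 and 90.3. The remaining ones were chr17:53371891-53372560, chr2:42834671-42835380, chr15:65863701-65865190 and chr6:34607301-34608250. In all, 12 of the 20 had a Hodgkin peak within 10 kb, and for 13 the nearest Hodgkin peak was one of L591.

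The 7 stretches fell into dense and sparse kinds. The stretch at chr19:41451881-41488970 held 9 of the selected regions, the most of any. Across its 37.1 kb, 51 Reh peaks covered 80.0% of the bases and 9 Namalwa peaks 6.85%, whereas L428 had 1 peak and L1236 and L591 had none. Starts of its successive regions were 2710, 5050, 2280, 5100, 1360, 5490, 12190 and 2540 bp apart. In the stretch at chr8:86864581-86892650, 41 Reh peaks covered 60.5% of 28.1 kb and 12 Namalwa peaks 12.2%. There the Hodgkin lines were not silent, with 5 peaks in L1236 and 8 each in L428 and L591, covering 9.16% to 15.3%. Its 6 selected regions thus lay between Hodgkin peaks, the nearest 0.07 kb away, and started 4520, 980, 8200, 7010 and 6610 bp apart.

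The stretch near the start of chromosome 4, chr4:17861-49180, held 7 selected regions, 16 Reh peaks and 10 Namalwa peaks, against 1 L591 peak and none of L1236 or L428. Reh peaks covered 34.2% of it and Namalwa peaks 13.4%. Percentiles of its regions reached 99.7 in Reh and 98.4 in Namalwa, the highest Namalwa value of the class. Starts of successive regions there were 760, 7930, 6930, 7210, 2010 and 5620 bp apart.

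Other stretches were sparse. At chr17:31532461-31562820, 4 regions started 7830, 7640 and 14190 bp apart, with 6 Reh and 4 Namalwa peaks, no Hodgkin peak inside and the nearest 62.8 kb from any of the 4. At chr3:13062271-13105020, 11 Reh peaks and 4 Namalwa peaks stood without any Hodgkin peak, the nearest 30.1 kb away. The stretch at chr7:1000651-1062910 held 5 regions, with 20 Reh and 7 Namalwa peaks against 1 in L1236, 1 in L428 and 2 in L591. At chr1:179341171-179367670 there were 6 Reh and 4 Namalwa peaks against 1 in L591. No hg18 sequence was used here, so whether a stretch consists of tandem repeats was not tested.

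**Figure D3:**
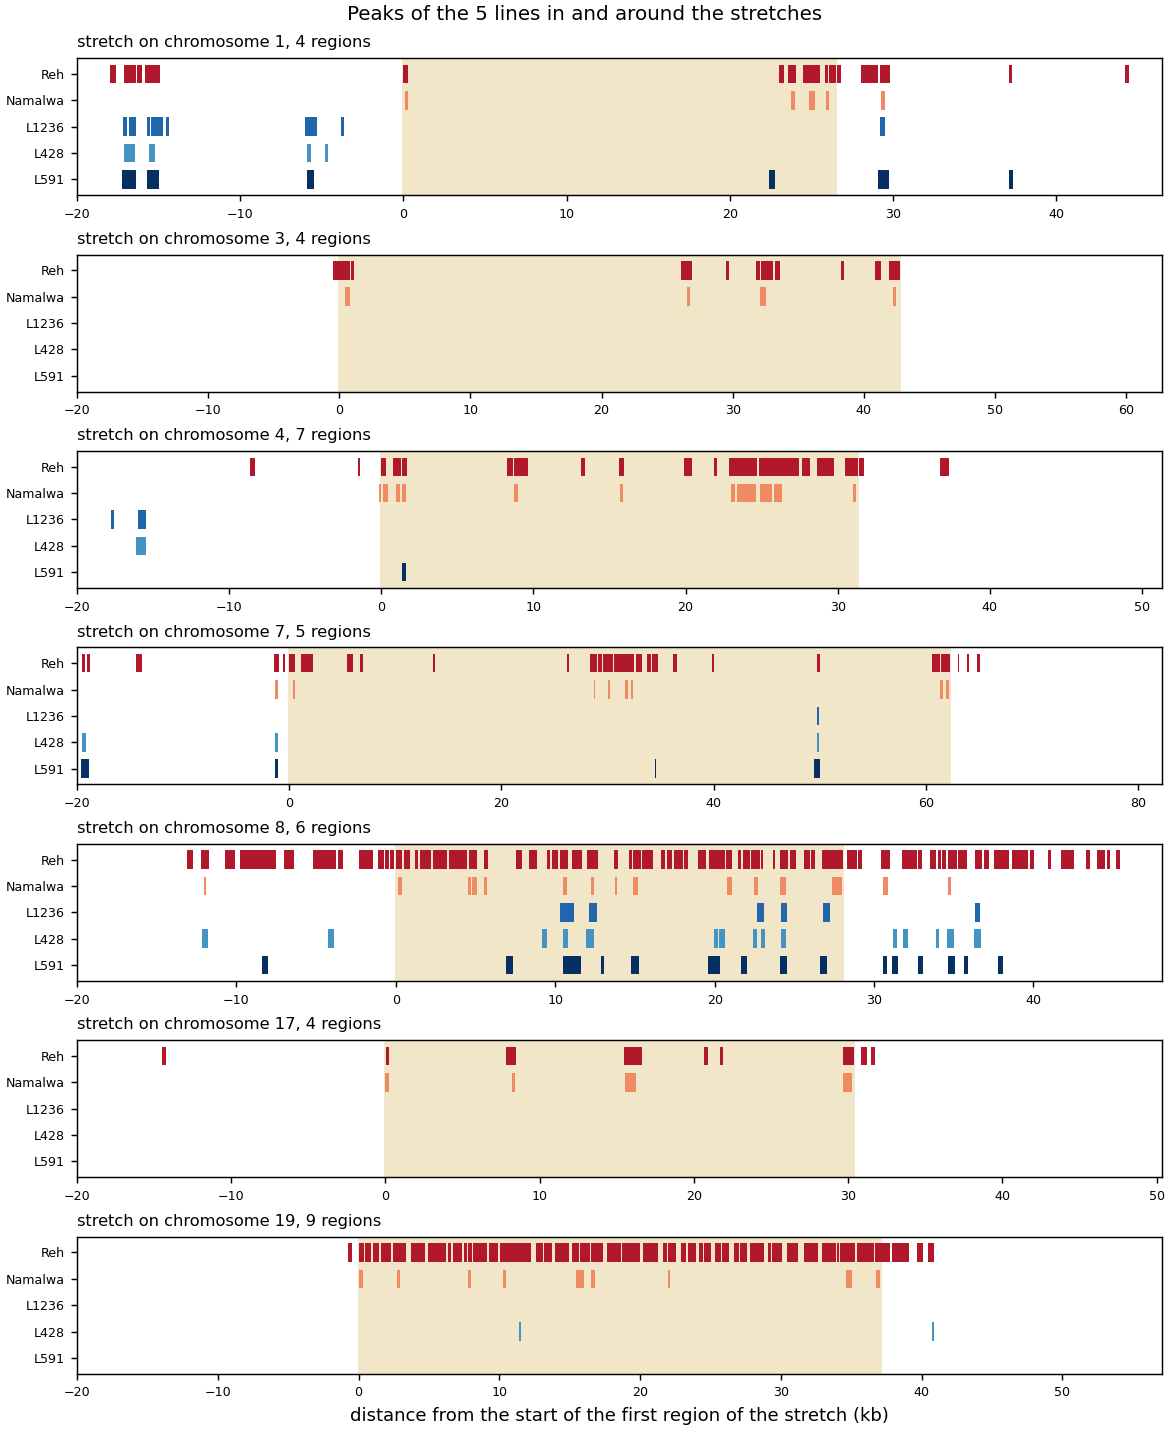
Peaks of the 5 lines (rows, Reh and Namalwa above the Hodgkin lines) in the 7 stretches, by distance in kb from the start of the first selected region (x axis, one scale per panel); the shaded span runs from the first to the last selected region. Reh peaks cover 80.0% of the span on chromosome 19 and 60.5% of that on chromosome 8, while the spans on chromosomes 3 and 17 hold no Hodgkin peak.

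Dense Reh signal reached beyond these stretches. Runs in which at least 20 Reh regions started within 50 kb, a measure added after the stretches had been seen, numbered 22 and covered 1437 kb. They held 3.44% of Reh regions and 3.01% of Namalwa regions, against 0.988% in L1236, 0.747% in L428 and 0.575% in L591. The Reh share is high by the definition of the runs, and 98.4% of Namalwa peaks touched a Reh peak. This order of the lines is therefore described and not tested. Of the selected regions, 47 lay in such runs, 22 from the stretches and 25 from the single sites (4.38% of them). The run at chr1:16739681-16885390 had 82 Reh and 8 Namalwa regions, 4 of them selected, against 14 regions in L1236, 8 in L428 and 7 in L591. The run at chr7:149685281-149737080 had 26 Reh and 6 Namalwa regions, 3 of them selected. In the run at chr4:48942821-49028370, with 2 selected regions, the Hodgkin lines had 28 to 37 regions beside 66 in Reh and 34 in Namalwa. Most single sites lay outside dense Reh runs, with a median of 4 other Reh regions within 25 kb. The median was lower in the other classes, at 1 for shared regions with a Hodgkin peak and 3 for regions of Reh alone. At 15.1% of single sites there were 10 or more other Reh regions within 25 kb. That share was 4.92% for shared regions with a Hodgkin peak and 11.3% for regions of Reh alone. Copy number was not measured in these files, and its part in dense runs was not tested.

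Many single sites lay near Hodgkin accessibility without touching it, but not more so than regions of Reh alone. A Hodgkin peak lay within 1 kb of 82 sites (14.4%, 11.6 to 17.5) and within 10 kb of 244 (42.7%, 38.6 to 46.9). The median gap was 13.0 kb to any Hodgkin peak, 34.7 kb to one of L1236, 26.3 kb to one of L428 and 20.2 kb to one of L591. L591, whose peaks covered the most bases of the Hodgkin lists (13.9 Mb, against 9.62 Mb in L1236 and 8.45 Mb in L428), supplied the nearest peak at 308 sites (53.9%). Of the 12641 regions of Reh alone, 20.2% had a Hodgkin peak within 1 kb and 50.3% within 10 kb, with a median gap of 9.83 kb. The Hodgkin-only regions lay farther from the other group, with a median gap of 32.7 kb to a Reh or Namalwa peak and 27.7% within 10 kb. The 2 directions rest on lists of unequal length, 3 on one side and 2 on the other. With lists of equal length, which leave fewer Hodgkin peaks, 16.9% of single sites had a Hodgkin peak within 10 kb.

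A smaller set stood far from Hodgkin peaks. At 35 single sites, on 14 chromosomes, no Hodgkin peak lay within 100 kb, and chromosome 7 held 5 of them, the most. Their median percentile was 85.8 in Reh and 38.7 in Namalwa. The 3 strongest of these were the leading sites on chromosomes 15, 7 and 1 given above, 144130, 121570 and 109270 bp from the nearest Hodgkin peak. They were followed by chr14:95200241-95201300, at percentiles 97.0 in Reh and 85.7 in Namalwa and 129100 bp from the nearest Hodgkin peaks. The last of the 5, chr17:31649201-31650230, at percentiles 94.5 and 83.2, was 179550 bp away and lay beyond the end of the chromosome 17 stretch.

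**Figure D4:**
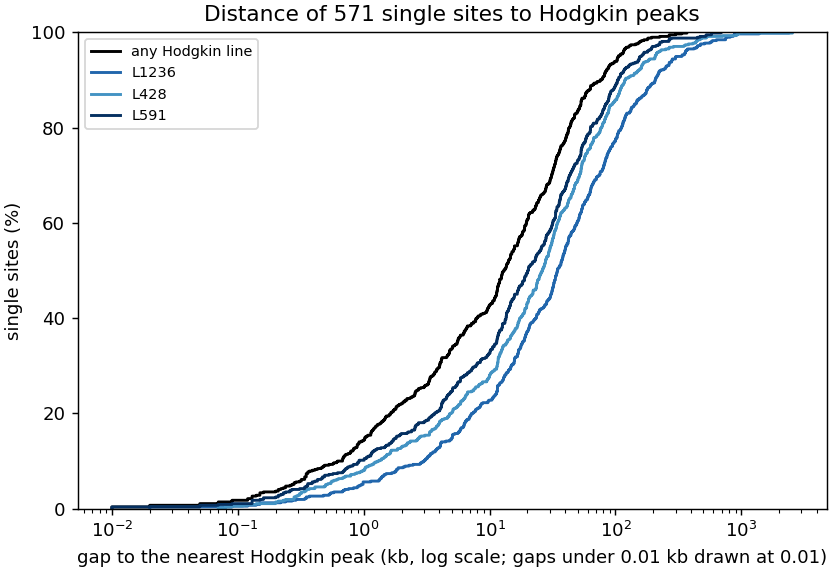
Cumulative share of the 571 single sites (y axis, %) by gap to the nearest Hodgkin peak in kb (x axis, log scale), for any Hodgkin line (black) and for each line (blue). The black curve passes 14.4% at 1 kb and 42.7% at 10 kb, and the L591 curve lies left of those of L428 and L1236, with a median gap of 20.2 kb.

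The surroundings of single sites took in larger shares of the Reh and Namalwa regions than of the Hodgkin regions. With all 610 selected regions left out, 19.3% of the remaining Reh regions and 14.5% of the remaining Namalwa regions lay within 100 kb of a single site, against 6.78% in L1236, 7.88% in L428 and 7.94% in L591. Both non-Hodgkin lines lay above all 3 Hodgkin lines. The mean was 16.9% in the non-Hodgkin lines (n = 2) and 7.53% ± 0.655 in the Hodgkin lines (SD, n = 3), a difference of 9.36 percentage points. At 6 U/ml the values were 19.3% in Reh against 6.78% in L1236 and 7.88% in L428, and at 12 U/ml 14.5% in Namalwa against 7.94% in L591. Without the sites in dense Reh runs the difference was 8.07 points. Around the 2518 Hodgkin-only regions, with those left out, the order was the opposite, at 23.5% in Reh and 22.9% in Namalwa against 30.8% ± 2.06 in the Hodgkin lines. Single sites were picked where Reh and Namalwa have peaks, and peaks of a line tend to lie together, so these neighbours are not independent of the choice and the difference is given without a p-value.

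Single sites were unevenly spread over chromosomes. Chromosome 1 held 88 (15.4%, 12.5 to 18.6), chromosome 7 held 61 (10.7%, 8.27 to 13.5), chromosome 19 held 46 (8.06%) and chromosome 17 held 42 (7.36%, 5.35 to 9.81). Shared regions with a Hodgkin peak had 13.9% on chromosome 1, 7.78% on chromosome 7, 9.91% on chromosome 19 and 5.22% on chromosome 17. On chromosome 22 the selected regions were 28 of the 115 shared by Reh and Namalwa (24.3%, 16.8 to 33.2), the highest share of the 22 chromosomes, and on chromosome 5 they were 11 of 180 (6.11%, 3.09 to 10.7), the lowest. Chromosome 2 had 20 of 289 (6.92%, 4.28 to 10.5), against 12.5% over all chromosomes.

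The ends of the span covered by peaks on each chromosome held many single sites. These ends were set by the pooled peaks and not by the sequence, so they need not be the physical ends of a chromosome. Within 5 Mb of the first or last peak of a chromosome lay 139 of them (24.3%, 20.9 to 28.1) and 12 of the 39 stretch regions. The same ends held 13.6% (12.6 to 14.7) of shared regions with a Hodgkin peak, 20.9% (20.2 to 21.6) of regions of Reh alone, 8.54% (7.48 to 9.70) of Hodgkin-only regions and 12.4% of all merged regions. Among whole lists, 17.2% of Reh and 15.03% of Namalwa regions lay there. The share of single sites was thus above that of the Reh and Namalwa lists from which they came, by intervals that cover counting error only. Its interval overlapped that of regions of Reh alone, so a high share in the ends was not particular to single sites.

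**Figure D5:**
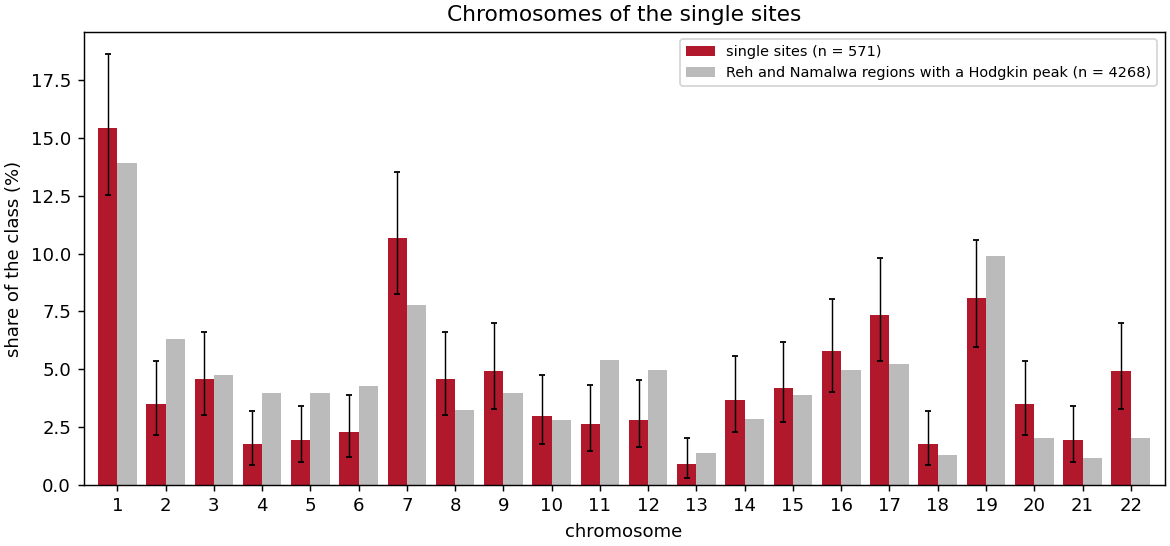
Share of the class on each chromosome (y axis, %) for the 571 single sites (red, with exact 95% binomial intervals) and the 4268 Reh and Namalwa regions with a Hodgkin peak (grey). The intervals lie above the grey share on chromosomes 7 (10.7% and 7.78%), 17, 20 and 22, and below it on chromosomes 2, 4, 5, 6, 11 and 12. On chromosomes 4, 17 and 20 they take in the share of all Reh regions (3.04%, 5.77% and 2.68%, not drawn). On the other chromosomes named here they do not. The 7 stretch regions of chromosome 4 are not among the single sites.

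At the scale of 1 Mb, 352 of 2620 windows with a merged region contained a single site. In 226 of these windows there was 1 site, so most of the 571 sites shared their window with another. When sites starting within 50 kb of the next were chained, 399 stood alone, 72 chains had 2 sites, 8 had 3 and 1 had 4. The windows with the most single sites were chromosome 1 from 1 to 2 Mb and from 16 to 17 Mb, with 7 each, and chromosome 8 from 144 to 145 Mb, with 6. The first had 95 Reh and 21 Namalwa regions, against 7 in L1236, 17 in L428 and 21 in L591. The second, which contains the dense run described above, had 143 Reh and 19 Namalwa regions against 27 to 42 in the Hodgkin lines. On chromosome 8 from 144 to 145 Mb, Reh had 68 regions and Namalwa 15, against 14 in L1236, 42 in L428 and 30 in L591. Windows with 5 sites followed on chromosomes 1 (153 to 154 Mb), 8 (145 to 146 Mb), 16 (84 to 85 Mb), 17 (53 to 54 Mb), 20 (55 to 56 Mb) and 22 (21 to 22 Mb). In the last, Reh had 55 regions and Namalwa 6, against 3 in L1236, 4 in L428 and 5 in L591.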

How the data were processed

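The data are 1 deposited list of DNase-seq peaks per cell line, for 5 human lines. The submitters' processing notes name Bowtie 1.00 and hg18. The file columns record that reads were elongated and binned at 10 bp. What called the peaks, and at which threshold, is not given in the sources used here. The deposited score of each peak is the authors' peak area, with no stated scaling to depth, so it was used as a percentile within a list. A region took its highest-scoring peak. The L1236 list lacks the mark qcTrimmed that the other lists carry.

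The spelling of L591 follows its title, since another label field has it otherwise. Peaks of chromosomes X and Y and of mitochondria were left out. Regions and tests were chosen with earlier results of these data known. Regions named are all stretches, the 20 leading single sites, the 5 leading ones over 100 kb from Hodgkin peaks, the windows with the most sites and the 3 regions nearest the boundary on each side. Windows tied for the last place were all named, and Reh-dense runs were named after their values were seen. A planned permutation test of neighbouring regions is not quoted, since the choice of sites favours its direction. Gaps count bases between peaks. Intervals are exact Clopper-Pearson at 95%. Merging, stretches and gaps were tested on simulated lists. Versions were scipy 1.17.1, pandas 2.3.3, numpy 2.4.6 and Python 3.11.15. Gene names and sequences are not given, because the available annotation is of another build.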

Additional observations from a re-analysis of the deposited data

How the results depend on the processing

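The class held 1008 regions with lists of equal length (5643 peaks) and 250 with the upper 50% of each list. With 1 line left out it ranged from 680 to 13264, the highest without Namalwa, where any Reh region without Hodgkin peaks counts. Requiring an overlap of 50% of the shorter peak exchanged 8 regions for 8 others. Single sites numbered 936 and 250 under the same list limits, and 635 to 6810 with a line left out. Stretch regions, 39 as reported, numbered 72 with equal lists, 0 with the upper 50%, 25 with peaks up to 200 bp apart merged, 69 and 22 with at least 3 and at least 5 members within 50 kb, 20 within 20 kb, 64 when members in dense Reh runs were added (chosen after seeing the data) and 45 to 6454 with a line left out. Without Reh they numbered 93.

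The median Reh percentile of single sites was 88.4 with equal lists, 90.3 with the upper 50%, 77.3 by score per bp and 29.9 to 81.1 with a line left out, the lowest without Namalwa. That of Namalwa was 47.0, 65.6 and 28.2 to 31.6 under equal lists, the upper 50% and a line left out. These 2 list limits drop weak peaks by construction, and percentiles were kept from the full lists. The share of single sites with a Hodgkin peak within 10 kb was 16.9% with equal lists, 31.2% with the upper 50% and 35.1% to 46.3% with a line left out (37.95% without L428 and 35.1% without L591). The difference in neighbours was positive under every setting tried, a direction that the choice of the sites favours, at 4.92 to 14.7 percentage points, and at 6.78 to 11.4 with a line left out, the highest without Namalwa. No paired analysis was possible because the labels carry no replicate numbers and each line gave 1 list. The short Namalwa list, of unknown depth, limits the number of regions that could be selected.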
